A study of Mus musculus with 12 samples.

Results

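To describe how genes of the smooth muscle contractile apparatus responded to transforming growth factor β1 (TGF-β1) and to knockdown of Pdcd5, 10 genes chosen by name were followed in C22 cells. They were Acta2, Actg2, Tagln, Cnn1, Cnn2, Myl9, Tpm1, Tpm2, Cald1 and Actn1, out of 23282 gene symbols counted. Of the 10 genes, 7 passed the filter on low counts together with 12425 genes in all, and Actg2, Cnn1 and Myl9 did not. RNA was measured by 3′ mRNA sequencing in 3 libraries of each of 4 groups, namely NC and siPdcd5 cells that were left untreated, and NC + TGF-β1 and siPdcd5 + TGF-β1 cells. NC cells carried the negative control, siPdcd5 cells were transfected with siRNA against Pdcd5, a programmed cell death gene, and treated cells received 20 ng/ml TGF-β1 for 24 h. All 4 groups came from C22, a cloned mouse Clara (club) cell line made from H-2Kb-tsA58 mice, whose transgene encodes a temperature-sensitive SV40 large T antigen, and all were differentiated before serum was withdrawn. The groups therefore represent 1 immortalized line, and p-values measure the spread between libraries that no source places in separate cultures.

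Smooth muscle cells contract when myosin pulls on actin filaments. The actin α2 and γ2 chains (Acta2, Actg2) build the filament, tropomyosins (Tpm1, Tpm2) lie along it, caldesmon and calponins (Cald1, Cnn1, Cnn2) bind it and restrain myosin, transgelin (Tagln) and α-actinin (Actn1) bind and cross-link it, and the regulatory light chain Myl9 switches myosin when phosphorylated. Many of these genes are controlled by serum response factor (SRF), which binds the CArG box and works with myocardin (Myocd) or the actin-sensing cofactors Mkl1 and Mkl2. In lung fibrosis, Acta2 is the usual marker of the myofibroblast, and TGF-β1 is a known inducer of it.

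Total counts per library ranged from 12809857 to 17714828. The knockdown target was checked first, and Pdcd5 was at 65.1 to 73.5 CPM (counts scaled to a common library size) in NC and 20.0 to 22.1 CPM in siPdcd5 libraries, with 66.3 to 69.7 and 21.8 to 26.3 CPM in the TGF-β1-treated groups, a log2 fold change of −1.69 without and −1.49 with TGF-β1 (edgeR adjusted p = 1.09e-06 and 5.47e-06). Of 7 club cell markers, Scgb3a2, Cyp2f2 and Gabrp had no count in any library, and Scgb1a1, which encodes the secretoglobin that defines the cell type, had at most 1, Scgb3a1 at most 5 and Hp at most 14, which goes against the labelled cell type. The remaining marker, Aldh1a1, was well detected, at a mean of 553 CPM in NC and 305 CPM in siPdcd5, and 238 and 160 CPM in the TGF-β1-treated groups, and it was called lower in all 4 pairwise comparisons, with log2 fold changes from −1.22 to −0.57. Myh11, the smooth muscle myosin heavy chain, had at most 4 counts in any library, and the summed level of 7 endothelial and leukocyte genes stayed between 8.48 and 14.0 CPM. NC + TGF-β1 replicate 2 and siPdcd5 replicate 1 stood farthest from the other libraries of their groups. The chi-square per degree of freedom of their counts was 34.2 and 61.5 against 11.8 for the other pair of NC + TGF-β1, and 34.4 and 26.4 against 10.1 for that of siPdcd5.

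The sequences upstream of the RefSeq starts are shown because SRF and the TEAD and SMAD factors are known regulators of this gene class. In the RefSeq promoter table (GRCm38.p6), 8 of the 10 genes had an entry, with 9 windows of 250 bases ending just before the start of transcription that RefSeq gives. All 9 windows overlap the GENCODE spans of their genes, which begin farther upstream. Most of the window lies inside the span for Acta2, Tpm1 and Tpm2, and 1 of the 2 Cald1 windows lies wholly inside. The entries of Actg2 and Tagln were not found. The letters of 4 motifs were searched, namely the CArG box on both strands (CC, then 6 letters that are each A or T, then GG), CATTCC and CAGAC on both strands, and TATAAA as transcribed. After the Acta2 sequence had been seen, a CArG box with 1 C or G among its 6 central letters was added to the search. The windows below are written 5′ to 3′ along the transcribed strand, with CArG boxes of either form in capitals.
Acta2 (chr19:34255374-34255623, minus strand): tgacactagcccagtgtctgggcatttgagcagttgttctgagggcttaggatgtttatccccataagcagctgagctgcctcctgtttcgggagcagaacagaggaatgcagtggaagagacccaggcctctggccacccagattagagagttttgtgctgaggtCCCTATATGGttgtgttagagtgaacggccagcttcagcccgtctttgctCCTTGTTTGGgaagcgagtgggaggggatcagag
Cnn2 (chr10:79988350-79988599, plus strand): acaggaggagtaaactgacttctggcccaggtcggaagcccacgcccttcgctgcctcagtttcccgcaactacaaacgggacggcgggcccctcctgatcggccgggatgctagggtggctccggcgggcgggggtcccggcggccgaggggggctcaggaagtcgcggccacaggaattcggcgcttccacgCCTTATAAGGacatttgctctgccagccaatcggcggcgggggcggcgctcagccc
Myl9 (chr2:156775214-156775463, plus strand): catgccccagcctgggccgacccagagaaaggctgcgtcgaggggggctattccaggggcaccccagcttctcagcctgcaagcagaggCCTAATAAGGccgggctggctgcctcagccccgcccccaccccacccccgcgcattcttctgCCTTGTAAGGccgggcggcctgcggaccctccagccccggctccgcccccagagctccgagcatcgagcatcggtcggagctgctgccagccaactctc
Tpm1 (chr9:67049214-67049463, minus strand): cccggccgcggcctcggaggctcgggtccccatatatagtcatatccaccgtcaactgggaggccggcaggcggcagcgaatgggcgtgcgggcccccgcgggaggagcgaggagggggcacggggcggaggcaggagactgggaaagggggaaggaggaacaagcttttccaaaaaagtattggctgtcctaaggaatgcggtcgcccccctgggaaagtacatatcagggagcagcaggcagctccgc

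The exact CArG box was found in Cnn2 (CCTTATAAGG, bases −56 to −47 from the RefSeq start) and in Myl9 (CCTAATAAGG, bases −161 to −152), and 1.47% of the 32851 windows in the table held one. Acta2 held no exact box and 2 of the form with 1 other letter, CCCTATATGG at −84 to −75 and CCTTGTTTGG at −34 to −25. Myl9 held 1 more of this form (CCTTGTAAGG, −99 to −90), which 7.24% of all windows contained. Neither form was in the windows of Cnn1, Tpm1, Tpm2, Cald1 or Actn1. CATTCC, the letters known for TEAD factors, was in Acta2, Tpm1 and 1 of the 2 Cald1 windows (12.6% of all windows), CAGAC, known for SMAD factors, was in Acta2 and Cald1 (42.2%), and TATAAA was in the other Cald1 window (7.59%). These matches describe letters only, and binding was not measured.

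TGF-β1 raised 4 of the 7 genes tested in NC cells and 5 of the 7 in siPdcd5 cells, and lowered none of the 7 in either. Acta2, Tpm1, Actn1 and Cald1 rose in both backgrounds, and Cnn2 passed the test in siPdcd5 cells. Over all 12425 genes, 8.57% were called higher and 6.77% lower in NC cells, and 8.50% higher and 7.61% lower in siPdcd5 cells (edgeR quasi-likelihood test, adjusted p under 0.05). The treated and untreated libraries did not overlap for 4 of the 7 genes in NC and 6 in siPdcd5 cells, against 29.6% and 36.1% of all genes in either direction. The median log2 fold change of the 7 genes was 0.56 in NC and 0.79 in siPdcd5 cells, beside 0.005 and −0.03 over all genes tested. In the bulk libraries, more cells expressing a gene and more RNA of it per cell cannot be told apart.

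**Figure D1:**
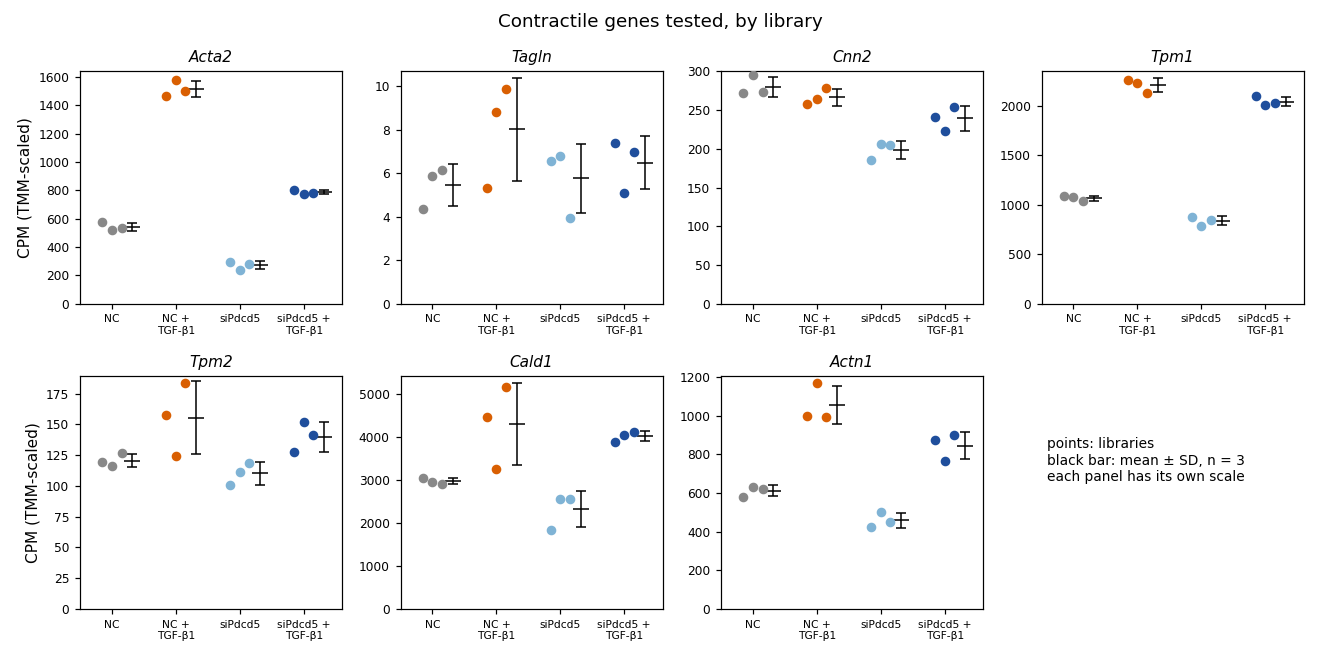
Level of each of the 7 tested genes in CPM (vertical axis, scaled by TMM, starting at 0) in the 4 groups (horizontal axis), with 1 point per library. The 3 siPdcd5 libraries of Acta2 lie at 241 to 295 CPM, below NC, and the 3 NC + TGF-β1 libraries at 1463 to 1576 CPM lie above every other group.

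Acta2 encodes smooth muscle α-actin (GRCm38 chr19:34241090-34255590, minus strand). Its level was 574, 521 and 535 CPM in the NC libraries and 1463, 1576 and 1499 CPM after TGF-β1, and it was 295, 241 and 279 CPM in siPdcd5 and 803, 776 and 779 CPM in siPdcd5 + TGF-β1. All 4 groups were separate, in the order siPdcd5, NC, siPdcd5 + TGF-β1 and NC + TGF-β1. The group means were 272 ± 27.7, 543 ± 27.7, 786 ± 14.8 and 1512 ± 57.8 CPM (SD, n = 3) in that order. After TGF-β1 it rose 2.78-fold in NC cells, a log2 fold change of 1.48 ± 0.09 (SE, edgeR adjusted p = 5.98e-08), which ranked 200 from the top of the 12425 genes. In siPdcd5 cells the log2 fold change was 1.53 ± 0.09 (edgeR adjusted p = 4.77e-08). Both calls held under all 14 alternative settings.

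Tpm1 and Tpm2 encode the α and β tropomyosins. Tpm1 (chr9:67022590-67049406, minus strand) was at 1086, 1078 and 1037 CPM in NC and 2264, 2231 and 2129 CPM in NC + TGF-β1, and at 879, 788 and 848 CPM in siPdcd5 and 2095, 2003 and 2026 CPM in siPdcd5 + TGF-β1. The treated libraries lay wholly above the untreated ones in both backgrounds. Its log2 fold change after TGF-β1 was 1.05 ± 0.08 in NC and 1.28 ± 0.08 in siPdcd5 cells (edgeR adjusted p = 4.05e-07 and 7.61e-08). Tpm2 (chr4:43514711-43523765, minus strand) was at 119, 116 and 127 CPM in NC and 157, 125 and 184 CPM in NC + TGF-β1, and at 100.4, 112 and 119 CPM in siPdcd5 and 127, 152 and 141 CPM in siPdcd5 + TGF-β1. The NC groups overlapped through replicate 2 of the treated libraries, whereas the siPdcd5 groups did not overlap. Tpm2 passed the test in neither background, with log2 fold changes of 0.36 ± 0.13 and 0.34 ± 0.13 (edgeR adjusted p = 0.0672 and 0.0803). Without NC + TGF-β1 replicate 2 the value in NC cells was 0.50 and passed (edgeR adjusted p = 0.00217), as it did with DESeq2 (adjusted p = 0.0467), and in siPdcd5 cells it passed with the 6 libraries compared (edgeR adjusted p = 0.0373).

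Cald1 encodes caldesmon, which links actin to myosin and inhibits their sliding. Its gene (chr6:34598500-34775473, plus strand) overlaps 3 other annotated non-coding genes. The level was 3053, 2946 and 2909.8 CPM in NC and 4458, 3265 and 5150.0 CPM in NC + TGF-β1, and 1843, 2566 and 2554 CPM in siPdcd5 and 3892, 4048 and 4118 CPM in siPdcd5 + TGF-β1. No untreated library reached a treated one, although NC + TGF-β1 replicate 2 was close to the NC libraries. Its log2 fold change after TGF-β1 was 0.53 ± 0.15 in NC and 0.79 ± 0.15 in siPdcd5 cells (edgeR adjusted p = 0.0278 and 0.00217). The call in NC cells was lost when any of NC replicates 1, 2 or 3 or NC + TGF-β1 replicates 1 or 3 was left out, with log2 fold changes between 0.39 and 0.69 over the single omissions. It was also lost with the 6 libraries compared (0.53, edgeR adjusted p = 0.0537) and under quantile normalization (0.11, limma adjusted p = 0.497), whereas the call in siPdcd5 cells held under all 14 alternatives.

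Actn1 encodes a non-muscle α-actinin that cross-links actin filaments at adhesions and stress fibres. Its gene (chr12:80167547-80260371, minus strand) overlaps 3 other annotated genes. It was at 579.8, 632 and 622 CPM in NC and 1000.0, 1167 and 994 CPM in NC + TGF-β1, and at 425, 502 and 452 CPM in siPdcd5 and 872, 764 and 898 CPM in siPdcd5 + TGF-β1. The treated libraries lay above the untreated ones in both backgrounds. The log2 fold changes of 0.79 ± 0.10 and 0.88 ± 0.10 (edgeR adjusted p = 5.96e-05 and 2.34e-05) passed under all 14 alternatives.

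Cnn2 encodes the calponin of non-muscle and smooth muscle cells (chr10:79988584-79996062, plus strand), and its window above holds an exact CArG box. It was at 272, 295 and 274 CPM in NC and 257, 264 and 279 CPM in NC + TGF-β1, and at 185, 206 and 205 CPM in siPdcd5 and 241, 223 and 255 CPM in siPdcd5 + TGF-β1. The NC groups overlapped, while the treated siPdcd5 libraries were above the untreated ones. The log2 fold change was −0.07 ± 0.08 in NC cells (edgeR adjusted p = 0.657) and 0.27 ± 0.08 in siPdcd5 cells (edgeR adjusted p = 0.0416). The call in siPdcd5 cells was lost without siPdcd5 replicates 1, 2 or 3 or siPdcd5 + TGF-β1 replicates 1 or 3, each left out alone, and under 5 of the other 8 alternatives, which were quantile normalization, upper-quartile factors, no filter, the 6 libraries compared and the replicate block (adjusted p from 0.0583 to 0.170 over all 10 that lost it, with edgeR or limma).

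Tagln encodes transgelin (SM22α), an early marker of smooth muscle differentiation. Its gene (chr9:45929619-45936058, minus strand) overlaps Pcsk7 and the antisense gene Gm48529, and 31.8% of the 75-base sequences in the last 500 bases of its transcripts also occur in those 2 genes, so that reads between them cannot be assigned with certainty. The level was low, at 57 to 135 counts per library. It was at 4.33, 5.86 and 6.14 CPM in NC and 5.33, 8.82 and 9.87 CPM in NC + TGF-β1, and at 6.57, 6.78 and 3.93 CPM in siPdcd5 and 7.38, 5.09 and 6.99 CPM in siPdcd5 + TGF-β1. The groups overlapped in both backgrounds, and the log2 fold changes of 0.56 ± 0.27 and 0.17 ± 0.26 did not pass (edgeR adjusted p = 0.196 and 0.710). The direction in siPdcd5 cells turned to −0.03 without siPdcd5 replicate 3.

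**Figure D2:**
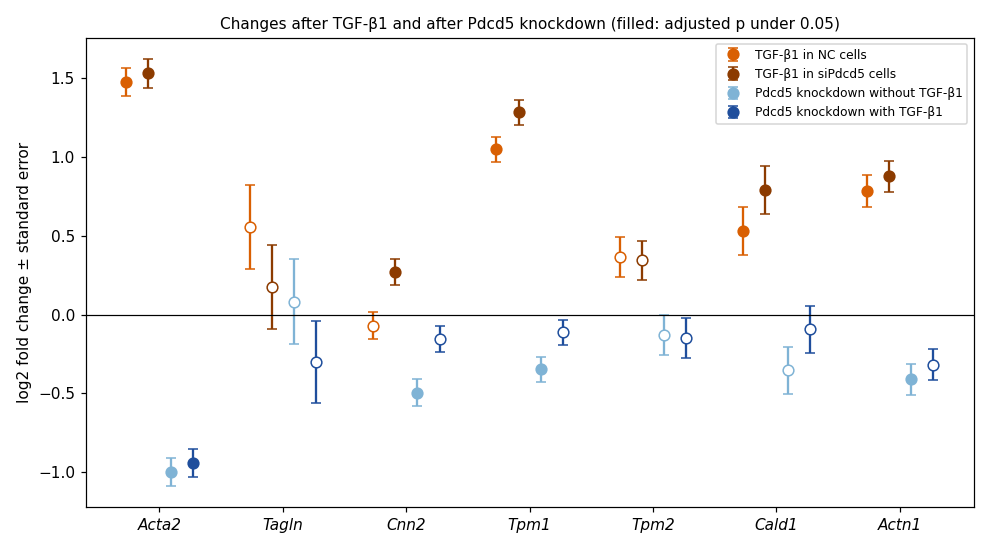
Log2 fold change with its standard error (vertical axis) of the 7 tested genes (horizontal axis) after TGF-β1 in NC and in siPdcd5 cells and after Pdcd5 knockdown without and with TGF-β1. Filled points passed the edgeR test at an adjusted p under 0.05. Acta2 is filled in all 4 comparisons, from −1.0 to 1.53, and Tagln and Tpm2 are open in all 4.

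Some markers of other cell types moved with these genes and others moved against them. The 10 fibroblast markers, of which 6 were tested, summed to 3761 to 4005 CPM in NC, 2562 to 3137 CPM in siPdcd5, 7447 to 8065 CPM in NC + TGF-β1 and 5613 to 5972 CPM in siPdcd5 + TGF-β1. The summed level of the 10 contractile genes was 5511 to 5688, 3734 to 4461, 8636 to 10247 and 7971 to 8224 CPM in the same order. Much of this contractile sum was Cald1, with means of 2969, 2321, 4291 and 4019 CPM in that order. The contractile sum therefore did not stand for each of the 10 genes. The fibroblast sum was mostly the collagen gene Col1a1, with a mean of 2719 CPM in NC, and did not stand for the whole list. After TGF-β1, 4 of the 6 tested markers rose and 1 fell in NC cells, and 3 rose and 1 fell in siPdcd5 cells. The collagens Col1a1, Col1a2 and Col3a1 rose in both, whereas Dcn, which encodes decorin, fell by 2.08 and 1.80 on the log2 scale. After knockdown without TGF-β1, Col1a1 and Col3a1 fell by 0.47 and 0.52 while Col1a2 and Dcn rose by 1.74 and 0.59, with a list median of 0.12, and with TGF-β1 Col1a1 fell by 0.43 and Dcn rose by 0.88. Tcf21 had no count in any library, and Lum at most 1. Of 8 epithelial markers, 3 were tested. The keratins Krt8 and Krt18 rose after TGF-β1, with log2 fold changes of 1.36 and 1.05 in NC cells. Cdh1 had values of −0.58 in NC and −0.13 in siPdcd5 cells that did not pass (edgeR adjusted p = 0.167 and 0.786). Epcam had at most 1 count in any library. The part of cell composition in the changes of the contractile genes was not tested.

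Knockdown of Pdcd5 without TGF-β1 lowered 4 of the 7 genes tested, Acta2, Cnn2, Actn1 and Tpm1, and raised none. Over all genes, 2.54% were called lower and 0.901% higher (edgeR, adjusted p under 0.05). The 3 siPdcd5 libraries lay wholly below the 3 NC libraries for 5 of the 7 genes, while 23.1% of all genes did not overlap in either direction, and the median log2 fold change was −0.36, beside 0.02 over all genes. From the CPM values above, Acta2 differed by −1.0 ± 0.09 on the log2 scale (edgeR adjusted p = 2.68e-05) and Cnn2 by −0.50 ± 0.08 (edgeR adjusted p = 0.00399), and both were called lower under all 14 alternatives. Actn1 fell by 0.41 ± 0.10 (edgeR adjusted p = 0.0341) and Tpm1 fell by 0.35 ± 0.08 (edgeR adjusted p = 0.0248). These latter calls were less stable. Leaving out any of NC replicates 1, 2 or 3 ended both, as did leaving out siPdcd5 replicate 3, while Tpm1 was also lost without siPdcd5 replicate 2 and Actn1 without siPdcd5 replicate 1, and with the replicate block their edgeR adjusted p was 0.05001 and 0.0625. Quantile normalization ended both as well (limma adjusted p = 0.161 for Tpm1 and 0.0957 for Actn1), and the 6 libraries compared ended that of Tpm1 (edgeR adjusted p = 0.0599). Cald1 was lower in all 3 siPdcd5 libraries but did not pass (−0.36 ± 0.15, edgeR adjusted p = 0.268), except with quantile normalization (−0.50, limma adjusted p = 0.00900). Neither Tpm2 (−0.13 ± 0.13, edgeR adjusted p = 0.696) nor Tagln (0.08 ± 0.27, edgeR adjusted p = 0.925) passed.

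In TGF-β1-treated cells, knockdown lowered Acta2 alone among the 7 genes. Over all genes, 1.22% were called lower and 0.330% higher in this comparison (edgeR, adjusted p under 0.05). The log2 fold change of Acta2 was −0.94 ± 0.09 (edgeR adjusted p = 0.000104), and the call held under all 14 alternatives. The siPdcd5 + TGF-β1 libraries were wholly below the NC + TGF-β1 libraries for 4 of the 7 genes, Acta2, Cnn2, Tpm1 and Actn1, while 18.9% of all genes did not overlap in either direction, and the median was −0.16, beside −0.02 over all genes. Actn1 differed by −0.32 ± 0.10 (edgeR adjusted p = 0.141), a value that passed under DESeq2 (adjusted p = 0.0480). Values of the remaining 5 genes lay between −0.30 for Tagln and −0.09 for Cald1, with edgeR adjusted p from 0.436 to 0.852. Because the comparisons share control libraries, the knockdown and TGF-β1 values of a gene are not independent.

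Whether the response to TGF-β1 differed between NC and siPdcd5 cells was tested as an interaction. No gene passed (0 of 12425, or 0% of all genes, with edgeR, 638 genes or 5.13% at an unadjusted p under 0.05, and 15 genes with DESeq2). None of the 7 contractile genes came near the threshold, with a smallest edgeR adjusted p of 0.949. The difference in log2 fold change for Acta2 was 0.06, with a 95% confidence interval from −0.21 to 0.32, which leaves room for a response in siPdcd5 cells that is somewhat weaker or stronger. Tpm1 differed by 0.24 (interval −0.001 to 0.47), Cald1 by 0.26 (−0.20 to 0.72), Actn1 by 0.09 (−0.21 to 0.39) and Tagln by −0.38 (−1.19 to 0.42). Cnn2 had the only unadjusted p under 0.05, with a difference of 0.34 ± 0.12 (unadjusted p = 0.0123, edgeR adjusted p = 0.949).

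The 3 genes under the filter on low counts were close to the limit of detection. A floor of 3 counts corresponds to 0.165 to 0.239 CPM in these libraries, and it covers counting error only. Actg2, the enteric smooth muscle actin (chr6:83512905-83536265, minus strand), had 2, 6 and 3 counts in NC and 20, 5 and 12 counts in NC + TGF-β1, and 1, 2 and 3 counts in siPdcd5 and 4, 5 and 4 counts in siPdcd5 + TGF-β1. The NC groups overlapped at 5 and 6 counts, while the treated siPdcd5 libraries were above the untreated ones. In a fit without the filter, over 18148 genes, Actg2 had a log2 fold change of 1.72 ± 0.73 after TGF-β1 in NC cells (edgeR adjusted p = 0.162). Of 1109 sequences of 75 bases near the Actg2 transcript ends, 0 were shared with another gene. Whether reads of Acta2 with mismatches were counted as Actg2 was not tested. Cnn1, the calponin of differentiated smooth muscle (chr9:22099216-22109630, plus strand), had 0 to 4 counts in every library. Myl9, whose window holds an exact CArG box (gene at chr2:156775420-156781658, plus strand), had 10 counts in NC + TGF-β1 replicate 3 and 0 to 3 counts in each of the other libraries, so that no change was detectable at this depth.

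**Figure D3:**
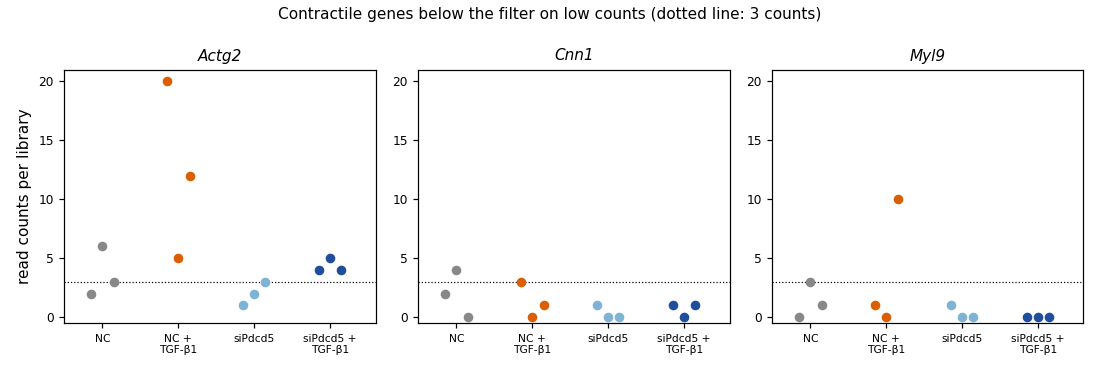
Read counts per library (vertical axis) of Actg2, Cnn1 and Myl9 in the 4 groups (horizontal axis), with a dotted line at 3 counts. The Actg2 libraries of NC + TGF-β1 reach 20 counts, Cnn1 does not exceed 4, and Myl9 exceeds 3 in 1 library, at 10 counts.

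Genes related by sequence to the contractile genes, SRF cofactors, cytoskeletal and adhesion genes, RhoA pathway genes and further smooth muscle markers were then counted. The counts in these lists stand beside shares of all 12425 genes (edgeR, adjusted p under 0.05). After TGF-β1, 8.57% were higher and 6.77% lower in NC cells, and 8.50% and 7.61% in siPdcd5 cells. After knockdown, 0.901% were higher and 2.54% lower without TGF-β1, and 0.330% and 1.22% with it. At the knockdown shares, lists of this length drawn at random from all genes would hold few or no called genes. Of 15 paralogues, 13 were tested, and 3 rose after TGF-β1 in NC cells: Acta1 (skeletal α-actin, log2 fold change 1.17), Tagln2 (transgelin 2, 1.12) and Tpm4 (a non-muscle tropomyosin, 0.46), with edgeR adjusted p of 0.0155, 1.58e-06 and 0.00188. In siPdcd5 cells Tagln2 and Tpm4 rose (1.27 and 0.58), and Acta1 had a value of 1.05 that did not pass (edgeR adjusted p = 0.0562). Acta1 stayed low in level, between 0.441 and 3.59 CPM over all libraries. Its mean was lowest with siPdcd5 alone (0.681 CPM) and highest with NC + TGF-β1 (3.18 CPM), as for Acta2. Unlike Acta2, untreated NC (1.41 CPM) was not below siPdcd5 + TGF-β1 (1.39 CPM). Of 852 sequences of 75 bases near the Acta2 transcript ends, 0 were shared with another gene. Reads with mismatches were not covered, and multiple alignments were counted. Whether reads of Acta2 were counted as Acta1 was not tested. The cytoplasmic actins Actb and Actg1 passed in no comparison, and no paralogue passed after knockdown. Acta1 had knockdown values of −1.07 without and −1.19 with TGF-β1 that did not pass (edgeR adjusted p = 0.130 and 0.0664). Its knockdown libraries lay wholly below the control libraries in both.

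Of the 12 genes listed as SRF and its cofactors, 11 were tested. Srf, at 63.8 to 157 CPM over all libraries, passed in no comparison (edgeR adjusted p from 0.483 to 0.947 in the 4 pairwise comparisons), nor did Mkl1. Mkl2 had a log2 fold change of −0.32 after TGF-β1 in siPdcd5 cells (edgeR adjusted p = 0.0422) and passed in no other, and Myocd had at most 1 count in any library. Rises after TGF-β1 were counted for 3 genes in NC and 4 in siPdcd5 cells, led by Csrp2, a LIM-domain protein (0.91 and 0.82, edgeR adjusted p = 2.30e-05 and 6.44e-05), with Elk3, an Ets factor that partners SRF, at 0.59 and 0.65 and Fhl2 at 0.39 and 0.65. Csrp1 passed in siPdcd5 cells (0.76) and had a value of 0.52 in NC cells that did not pass. Knockdown without TGF-β1 lowered Fhl1 and Fhl2, LIM-only proteins (−0.66 and −0.63, edgeR adjusted p = 0.0137 and 0.0105), and with TGF-β1 lowered none of the 11.

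All 16 cytoskeletal and adhesion genes were tested, and 7 rose after TGF-β1 in each background, led by Pdlim1 (1.36 in NC and 1.37 in siPdcd5 cells) and Pdlim7 (1.34 and 1.29), PDZ and LIM proteins that bind α-actinin or tropomyosin. Their edgeR adjusted p was at most 7.94e-05. Those that rose were Pdlim1, Pdlim7, Myh9, Filip1l, Fblim1, Zyx and Flna in both backgrounds, the last encoding filamin A. After knockdown without TGF-β1, 4 of the 16 fell, led by Pdlim5 (−0.72, edgeR adjusted p = 0.0264) and Zyx, the adhesion protein zyxin (−0.59, edgeR adjusted p = 0.00224). With TGF-β1, Pdlim5 was the single gene of the 16 that passed (−0.77, edgeR adjusted p = 0.0307).

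RhoA drives myosin phosphorylation through the ROCK kinases, and all 14 genes of this list were tested. After TGF-β1, 3 rose and 2 fell in each background. Arhgef2, an activator of RhoA, rose by 0.92 in NC and 0.79 in siPdcd5 cells on the log2 scale, with edgeR adjusted p of 5.69e-06 and 2.94e-05. Of the cofilin kinases, Limk2 rose in both (0.47 and 0.43), and Limk1 rose by 0.56 in NC cells and had a value of 0.14 in siPdcd5 cells that did not pass. Rnd3, an inhibitor of RhoA signalling, fell by 1.06 and 1.31, and the kinase gene Rock2 fell by 0.47 and 0.33. Rock2 was also lower after knockdown without TGF-β1 (−0.44, edgeR adjusted p = 0.0229), and none of the 14 passed with TGF-β1. Among 12 further smooth muscle markers, 5 were tested and 1 rose after TGF-β1 in each background: Hspb6, a small heat shock protein, in NC cells (0.52, edgeR adjusted p = 0.0476) and Lmod1, an actin nucleator, in siPdcd5 cells (1.38, edgeR adjusted p = 0.0240). In the other background their values were 0.34 and 0.79 and did not pass. Lmod1 was low in level, at 7 to 14 counts per library in siPdcd5 and 24 to 29 in siPdcd5 + TGF-β1. The summed level of the 12 markers ranged from 284 to 443 CPM in NC + TGF-β1, around the 361 to 392 CPM of NC.

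**Figure D4:**
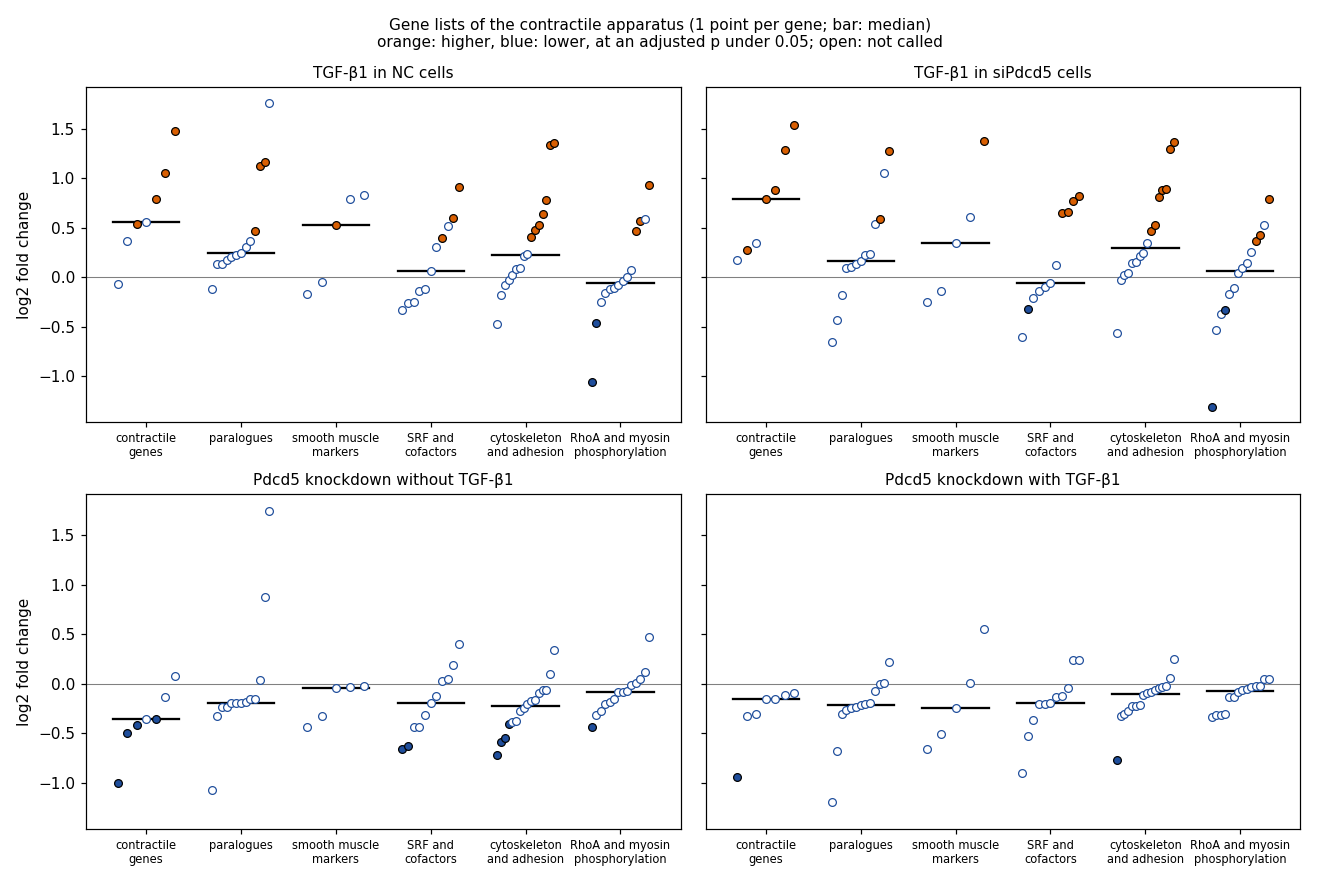
Log2 fold change (vertical axis) of each tested gene, 1 point per gene, for the contractile genes and 5 lists of related genes (horizontal axis) in the 4 pairwise comparisons, 1 panel each, with a bar at the median of each list. Orange and blue points passed as higher and lower. The contractile genes have medians of 0.56 and 0.79 in the TGF-β1 panels and −0.36 and −0.16 in the knockdown panels.

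To find genes with a pattern like that of Acta2, the log2 CPM of each gene outside the 10 contractile genes with a mean of at least 3 was centred on its NC mean, and the root mean square difference from Acta2 over the 12 libraries was computed. The 3 nearest genes were Aldh1l2, a mitochondrial folate enzyme (0.164), Pck2, the mitochondrial phosphoenolpyruvate carboxykinase (0.268), and Tnc, the matrix protein tenascin C (0.269). Aldh1l2 averaged 19.1 CPM in NC, 9.20 in siPdcd5, 56.2 in NC + TGF-β1 and 31.8 in siPdcd5 + TGF-β1 (SD 1.22, 0.506, 4.24 and 3.59, n = 3). Like Acta2, it had its lowest mean in siPdcd5 and its highest in NC + TGF-β1.

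**Figure D5:**
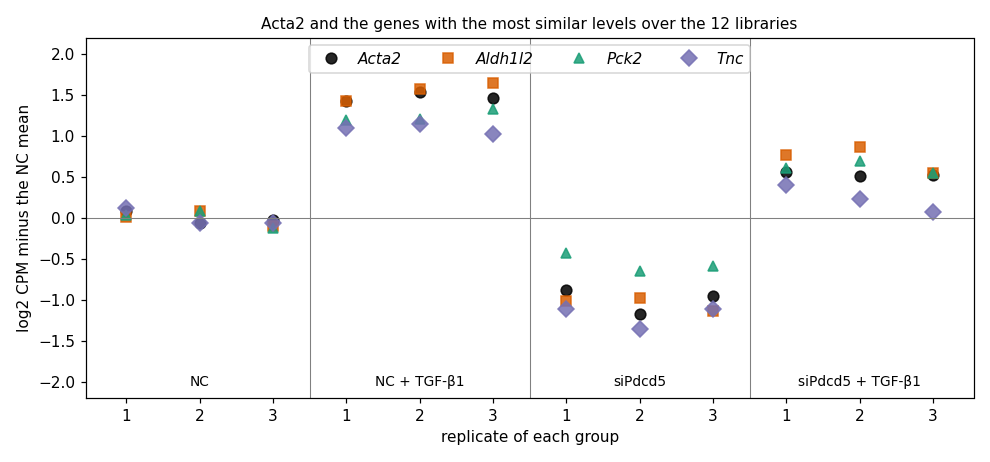
Log2 CPM minus the NC mean (vertical axis) of Acta2, Aldh1l2, Pck2 and Tnc in the 12 libraries (horizontal axis, grouped by condition). The 4 genes lie above 0 in the NC + TGF-β1 libraries and below 0 in the siPdcd5 libraries, with root mean square differences from Acta2 of 0.164 to 0.269.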

How the data were processed

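RNA of C22 cells was made into libraries with the Lexogen QuantSeq 3′ kit. The authors aligned single-end reads with Bowtie2 to mm10 and counted reads per gene, multiple alignments included, and deposited raw counts per gene symbol for 12 libraries, whose groups were taken from the labels. The use of strand in counting is not given in the sources used here. With R 4.3.3, genes were kept by edgeR's (4.0.16) default filter, libraries were scaled by TMM, and 1 quasi-likelihood model with the 4 groups gave 5 contrasts with Benjamini-Hochberg adjustment over 12425 genes and a threshold of 0.05. The study's methods name quantile normalization, which was run as an alternative with limma 3.58.1. The other alternatives were upper-quartile and relative log expression scaling in edgeR and the test of DESeq2 (1.42.0). Other filters, the 6 libraries of each comparison, a replicate block and each library left out were also run. The fit was tested on simulated data for the contrast of TGF-β1 in NC cells only. No outlying library was simulated, and the knockdown and interaction contrasts were not covered.

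Counts are of 3′ ends, so CPM values of different genes were not ranked against each other. Replicates 1 to 3 differed by more than sampling noise. Log2 CPM used a prior count of 2. Gene positions are from GENCODE vM21 (GRCm38, the assembly of mm10). Named genes were all 10 contractile genes, Pdcd5, Srf, Myocd, Mkl1, Mkl2 and Myh11, up to 2 genes with the largest rise and fall per list and comparison, and the 3 genes nearest to Acta2. Other genes were named after their values were seen. The contractile genes and the lists were chosen with earlier results of these data known.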

Additional observations from a re-analysis of the deposited data

How the results depend on the processing

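Of 525 values for the 35 tested pairs of contractile gene and comparison under the alternatives, 476 kept their direction and side of the threshold, 32 lost and 5 gained the call, and 12 turned direction. The 427 genes changed by knockdown without TGF-β1 became 714 with DESeq2 and 175 to 326 with 1 library left out, and the 4 contractile genes among them became 2 with the replicate block and 2 to 3 with 1 library left out. The 192 genes changed by knockdown with TGF-β1 became 459 with DESeq2, 43 with the 6 libraries compared, 107 with the replicate block and 74 to 326 with 1 library left out, and the 1 contractile gene became 2 with DESeq2. The interaction, with 0 genes, had 15 with DESeq2 and 0 to 2 with 1 library left out. Values that turned direction had not passed. With 1 library left out, Tagln ranged from −0.035 to 0.32 after TGF-β1 in siPdcd5 cells and from −0.061 to 0.29 after knockdown without TGF-β1, Cald1 from −0.26 to 0.054 after knockdown with TGF-β1, and the interaction from −0.16 to 0.11 for Tpm2 and from −0.024 to 0.13 for Acta2. Quantile normalization gave 0.16 for Cald1 after knockdown with TGF-β1 and 0.018 for the Tpm2 interaction. The causes were not tested. Upper-quartile scaling gave 945 genes higher and 996 lower after TGF-β1 in NC cells, and 939 and 1072 in siPdcd5 cells, beside 1065 and 841, and 1056 and 946.

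No source says that the replicate number marks a shared culture, so the numbers were not taken as pairs. Same-numbered replicates correlated by −0.324 to 0.204 in their deviations from the group means. For NC and NC + TGF-β1 the mean was 0.113, beside −0.057 for differently numbered ones. With 3 libraries per group, these values cannot decide whether the replicates were paired. The replicate block ended the calls of Tpm1 and Actn1 after knockdown without TGF-β1 and of Cnn2 after TGF-β1 in siPdcd5 cells. Depth limits Actg2, Cnn1 and Myl9, which had at most 20 counts in any library.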
